A study of Danio rerio with 12 samples.

Results

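The 37 genes listed on the mitochondrial chromosome (MT) of the zebrafish were described here across 12 RNA libraries, out of 31901 genes listed in all. They were chosen by chromosome alone, and their listed biotypes divided them into 13 protein coding, 2 rRNA and 22 tRNA genes. Each protein coding gene is counted below as an mRNA of its own, also where neighbours overlap on the same strand. Vertebrate mitochondrial DNA is a small circle that is transcribed from both strands into long polycistronic RNAs, and excision of the tRNAs that lie between the other genes releases the mRNAs and rRNAs. The proteins encoded there are core subunits of the respiratory chain and of the ATP synthase, and the rRNAs and tRNAs serve their translation inside the organelle. Nuclear genes supply the remaining subunits and all proteins needed to copy, transcribe and translate the mitochondrial genome, so that each respiratory complex other than complex II is built from both genomes.

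The libraries came from whole wild-type embryos exposed from 6 to 24 hours post-fertilisation (hpf) in 3 groups of 4 libraries. The control group received 0.1% DMSO, the solvent. The second group received 75 µM GW9662, used as a covalent blocker of the nuclear receptor PPARγ. The third received 25 µM rosiglitazone, used as an agonist of that receptor, so that the doses of the compounds differed. Whether either compound acted on the receptor in these embryos was not tested. The number of embryos per library was not given in the sources used here. Nothing in the labels says that the replicates came from separate clutches, so p-values measure only the spread between these libraries. Groups were taken from the sample titles and library names. The treatment tag disagrees with these titles, since it reads TBBPA where the title is GW9662 and DMSO where the title is rosiglitazone. The batch tag runs from 24 to 35 hpf with no value shared by any libraries and rises through the groups. Its meaning is unclear, since exposure is listed to end at 24 hpf for every library. Whatever the tag marks and group cannot be told apart.

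Values were FPKM, fragment counts scaled to gene length and library size, which eases comparison of levels between genes of different length. This holds less well for genes as short as the tRNAs and mt-atp8, since a fragment can reach beyond such a gene. The FPKM gave whole fragments that summed to between 12772174 and 22746500 per library. Listed markers of muscle, heart, neurons, ionocytes and erythroid cells were each above 0 in at least 1 library, a bar too low to test the label of whole embryo. The rRNA and tRNA genes are listed without symbols, and were named from the RefSeq mitochondrial annotation, in which all 37 genes had the same start and end. The genome build was not given in the sources used here.

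Mitochondrial mRNAs were among the most abundant transcripts of these embryos. The gene for the catalytic subunit of cytochrome c oxidase, mt-co1 (ENSDARG00000063905, MT 6425 to 7975), had the highest FPKM of all genes listed in each of the 12 libraries. By mean FPKM over all libraries, mt-co2 ranked 2, mt-co3 ranked 4, mt-atp6 ranked 6 and mt-cyb ranked 16. The remaining mRNAs lay between rank 37 (mt-nd1) and rank 118 (mt-nd4l), apart from mt-atp8, at rank 428. The rRNAs were far lower than most mRNAs, with mt-rnr2 at rank 209 and mt-rnr1 at rank 606. How the RNA was selected for sequencing was not given in the sources used here, so the rRNA level is not a measure of rRNA in the cell. For the same reason, differences in rRNA between groups and differences in RNA selection between libraries cannot be told apart.

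In DMSO the FPKM fell in the order mt-co1, mt-co2, mt-co3, mt-atp6, mt-cyb, mt-nd1, mt-nd2, mt-nd4, mt-nd6, mt-nd3, mt-nd5, mt-nd4l, mt-rnr2, mt-atp8, mt-rnr1. The DMSO libraries of neighbours in this order overlapped for mt-co2 and mt-co3, for mt-co3 and mt-atp6, for mt-nd6 and mt-nd3, and for mt-nd5 and mt-nd4l. No other neighbours overlapped. The steepest step within the mRNAs above mt-rnr2 was from mt-atp6 (4744 ± 290 FPKM, SD, n = 4) to mt-cyb (2613 ± 112 FPKM), a ratio of 1.82. The order did not follow position on the genome, since the 3 oxidase genes and mt-atp6 lie in the middle of it and mt-cyb near its end, as the plot of levels by gene shows. Transcripts of 28 of the 37 genes are read from the plus strand, and 9 genes, mt-nd6 and 8 tRNAs, lie on the minus strand. Whether counting used the strand was not given in the sources used here, so reads of mt-nd6 and of plus-strand RNA over the same bases cannot be told apart.

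**Figure D1:**
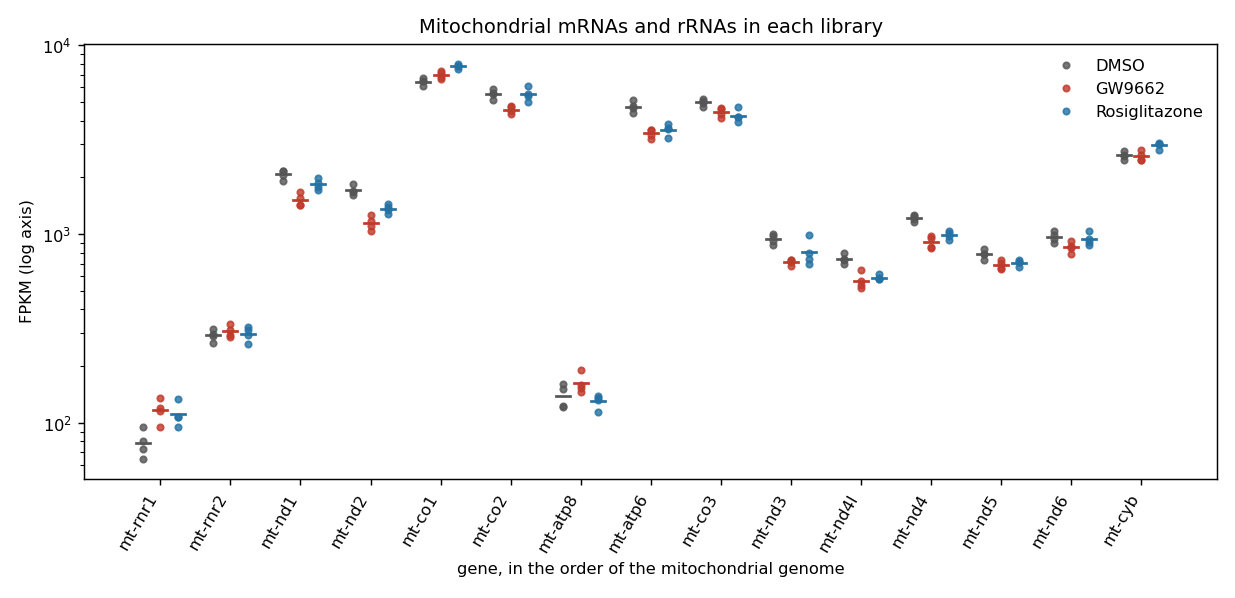
FPKM on a log axis of the 13 mitochondrial mRNAs and 2 rRNAs, in the order of the genome, for each library (points) and as the mean of the 4 libraries of each group (lines). The oxidase genes and mt-atp6 lie at 3174 or above in every library, mt-atp8 and mt-rnr1 at 192 or below, and DMSO libraries stand above GW9662 libraries for most complex I genes and for mt-atp6.

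Taken as 1 pool, the 37 genes held a smaller share of fragments in GW9662 embryos and nearly the same share in rosiglitazone embryos. Their share of all fragments was 3.495, 3.31, 3.17 and 3.30% in the DMSO libraries, 3.11, 2.85, 2.83 and 2.93% in the GW9662 libraries, and 3.28, 3.19, 3.33 and 3.25% in the rosiglitazone libraries. Every GW9662 library lay below every library of the other groups, while DMSO and rosiglitazone overlapped. On the log2 scale the mean share differed from DMSO by -0.18 with GW9662 and by -0.02 with rosiglitazone. In bulk RNA of whole embryos, fewer cells rich in mitochondria and less mitochondrial RNA per cell cannot be told apart. As a share of summed FPKM, which weights short genes more, the DMSO libraries held 7.22 ± 0.242% (SD, n = 4), those with GW9662 6.18 ± 0.280% and those with rosiglitazone 6.84 ± 0.143%. By this measure too the GW9662 libraries lay below all others. The rosiglitazone libraries were at 6.77, 6.77, 7.06 and 6.79%, and the lowest DMSO library at 6.98%. Only rosiglitazone replicate 3 therefore reached the DMSO range, and the log2 difference from DMSO was -0.08.

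The pool was almost wholly mRNA. The protein coding genes took 3.25 ± 0.133% of fragments in DMSO, the rRNAs 0.0575 ± 0.00367% and the tRNAs 0.00596 ± 0.000347%. The rRNA share was 0.0624 ± 0.00566% in GW9662 and 0.0610 ± 0.00431% in rosiglitazone, and the tRNA share 0.00490 ± 0.000646% and 0.00570 ± 0.000722%, each overlapping DMSO. The difference in the pool with GW9662 was therefore one of mRNA, and within the mRNAs the complexes differed. Complex I genes, which encode subunits of the NADH dehydrogenase, held 0.813 ± 0.0355% of fragments in DMSO, and 0.602 ± 0.0361% and 0.686 ± 0.0164% with GW9662 and rosiglitazone, with no overlap between any pair of groups. The ATP synthase genes, a sum that is nearly all mt-atp6, held 0.333 ± 0.0193%, 0.235 ± 0.0101% and 0.248 ± 0.0106%, lower than DMSO in all 4 libraries of each compound. Complex IV genes summed, at 1.80 ± 0.0672%, 1.73 ± 0.0601% and 1.92 ± 0.0249%, were higher than DMSO in all 4 rosiglitazone libraries and overlapped DMSO in GW9662. The margin was narrow, with the lowest rosiglitazone library at 1.893% and the highest DMSO library at 1.889%. Of these genes only mt-co1 rose with rosiglitazone (log2 change in FPKM 0.27), while mt-co2 stood at -0.01 and mt-co3 at -0.23.

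**Figure D2:**
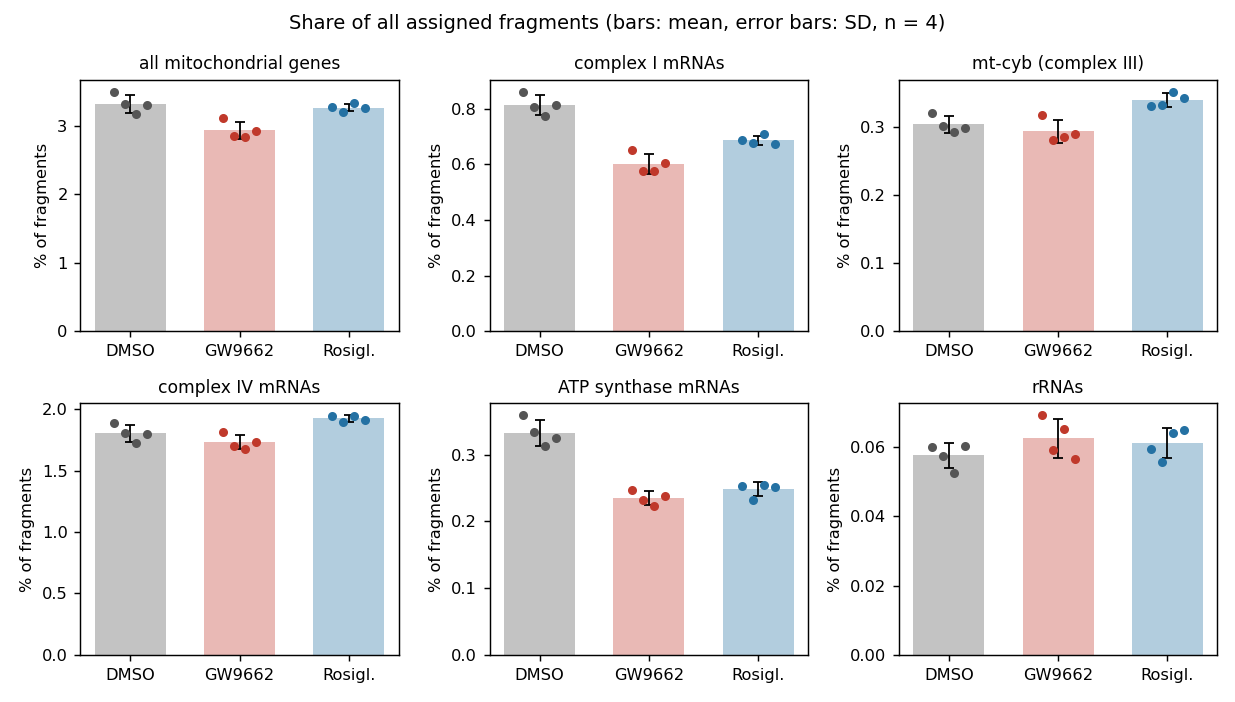
Percent of all assigned fragments taken by the mitochondrial genes, by complex and for the rRNAs (points: libraries, bars: means of 4, error bars: SD), on axes that start at 0. The summed complex I and ATP synthase mRNAs are lower than in DMSO with both compounds, at 0.602 and 0.686% and at 0.235 and 0.248%. The complex IV sum is higher with rosiglitazone, at 1.92%, where only mt-co1 of its members rose.

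The comparison of GW9662 with DMSO asked which transcripts differed in embryos exposed to that compound. Complex I transcripts fell most widely among the mitochondrial mRNAs. The gene mt-nd2 (ENSDARG00000063899, MT 4993 to 6039), for a membrane subunit of complex I, stood at 1836, 1703, 1623 and 1674 FPKM in DMSO and at 1268, 1100, 1042 and 1173 FPKM in GW9662. The lowest DMSO library lay well above the highest GW9662 library, and the log2 change was -0.58 ± 0.0676 (SE), a 1.49-fold fall (limma adjusted p = 2.02e-05). Of the 7 complex I genes 6 fell and none rose. The gene mt-nd1, whose product lies where the matrix arm of complex I meets its membrane arm, fell from 2077 ± 119 to 1523 ± 110 FPKM (SD, n = 4; log2 change -0.45, adjusted p = 2.11e-04). The gene mt-nd4 (ENSDARG00000063917, MT 11299 to 12679), for a proton pumping subunit, fell by a log2 of 0.43 (adjusted p = 1.04e-04). The short genes mt-nd3 and mt-nd4l fell by 0.41 and 0.39, with no overlap between the groups for either.

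The last complex I genes on the plus and on the minus strand differed least. The proton pumping subunit gene mt-nd5 fell by a log2 of 0.19 (adjusted p = 0.0147), with values of 836, 784, 732 and 782 FPKM in DMSO and 732, 663, 653 and 704 FPKM in GW9662. The groups met at 732, and the call was lost without DMSO replicate 1 (adjusted p = 0.0534). The gene mt-nd6, the sole mRNA of the minus strand, did not pass at -0.18 (adjusted p = 0.0534), and its libraries overlapped. Under scaling to total assigned fragments it did pass, at -0.21 (adjusted p = 0.00350), as under quantile normalization (adjusted p = 0.00140), with a filter of 5 FPKM (adjusted p = 0.0432) and in a fit on the 2 groups (adjusted p = 0.0361). Leaving out DMSO replicate 3 (adjusted p = 0.0355), GW9662 replicate 4 (adjusted p = 0.0327) or rosiglitazone replicate 1 (adjusted p = 0.0229) also let it pass.

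The gene mt-atp6, for the ATP synthase subunit that forms the proton channel with the rotor ring, was the other large fall. It stood at 5111, 4774, 4407 and 4685 FPKM in DMSO and at 3581, 3366, 3174 and 3554 FPKM in GW9662 (log2 change -0.47 ± 0.0723 (SE), adjusted p = 2.11e-04). All GW9662 libraries lay below all DMSO libraries. Its partner mt-atp8, for a small membrane subunit, did not pass at 0.22 (adjusted p = 0.118), with 140 ± 19.3 FPKM in DMSO and 163 ± 20.2 in GW9662. The genes overlap by 7 bases on the same strand, and without DMSO replicate 4 mt-atp8 passed (adjusted p = 0.04895). It is 165 bases long and drew 267 to 589 fragments per library.

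Of the complex IV and complex III transcripts only mt-co2 passed with GW9662. The oxidase gene mt-co2, for the subunit that receives electrons from cytochrome c, fell from 5516 ± 287 to 4563 ± 208 FPKM (log2 change -0.27, adjusted p = 0.00977), with no overlap. Under quantile normalization its change was -0.03 (adjusted p = 0.554). That scaling sets values by rank, which leaves little room for change in a gene of rank 2 by mean FPKM. The structural oxidase subunit gene mt-co3 stood lower in all 4 libraries at -0.17 without passing (adjusted p = 0.0721), and passed under scaling to total assigned fragments, at -0.21 (adjusted p = 0.00188), with a filter of 5 FPKM (adjusted p = 0.0487), in a fit on the 2 groups (adjusted p = 0.0333) and without rosiglitazone replicate 1 (adjusted p = 0.0218). The catalytic subunit gene mt-co1 was at 6686, 6443, 6088 and 6484 FPKM in DMSO and 7290, 6827, 6606 and 7099 FPKM in GW9662. These ranges overlapped, and the log2 change of 0.11 had a 95% interval from -0.02 to 0.25 (adjusted p = 0.181). The cytochrome b gene mt-cyb, the mitochondrial subunit of complex III, stood at 2613 ± 112 and 2584 ± 154 FPKM (log2 change -0.02, 95% interval -0.15 to 0.11).

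Of the 2 rRNAs the smaller rose. The small-subunit rRNA gene mt-rnr1 (ENSDARG00000082753, MT 1020 to 1971) stood at 95.2, 80.8, 64.5 and 72.7 FPKM in DMSO and at 135, 116, 121 and 95.8 FPKM in GW9662. The groups did not overlap, by a narrow margin between the highest DMSO and the lowest GW9662 library, and the log2 change was 0.58 ± 0.131 (SE; adjusted p = 0.00380). The large-subunit rRNA gene mt-rnr2 stood at 291 ± 21.0 and 306 ± 21.4 FPKM and did not pass (log2 change 0.07, adjusted p = 0.478).

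Counted together, 34 of the 37 genes passed the filter on low values (at least 1 FPKM in at least 4 libraries), and 13 of these changed with GW9662, 2 higher and 11 lower. The lower calls were 8 of 13 mRNAs and 3 of 19 tested tRNAs. Over all 14433 genes tested, 36% were called, 18.9% higher and 17.1% lower, and among the 598 nuclear genes with a mean of at least 100 FPKM 48.3% were called, 24.6% higher and 23.7% lower. The share of mRNAs that fell was above both lower shares, and the share of all members called was near the background. The mRNAs share precursor RNAs, and mt-nd4l and mt-nd4, both called, overlap on the same strand. The calls of the mRNAs are therefore not independent of each other. Libraries did not overlap for 3 genes on the higher and 10 on the lower side, against 19.4% and 17.5% of all genes tested. The median log2 change was -0.27 for the mRNAs, and 0.01 for all genes tested. Markers of fast and slow muscle fibres moved in the same comparison: 21 of 23 tested fell, and their median log2 change was -1.37. Their summed FPKM ran from 15392 to 16145 in DMSO, 5855 to 6769 in GW9662 and 10979 to 14019 in rosiglitazone. None of the 25 measured markers was at 0 in all libraries. These markers were listed with earlier results of these data known, and their part in the fall of the mitochondrial mRNAs was not tested.

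**Figure D3:**
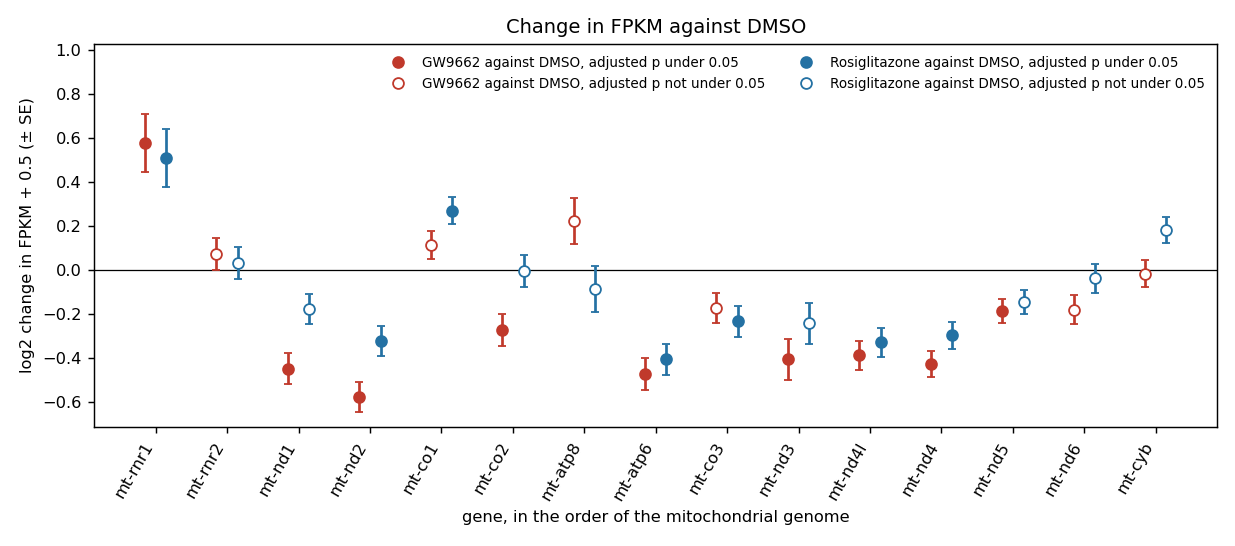
Log2 change in FPKM + 0.5 against DMSO, with SE, of each mitochondrial mRNA and rRNA with GW9662 (red) and rosiglitazone (blue), where filled points passed an adjusted p of 0.05. Both comparisons use the same DMSO libraries. The changes range from -0.58 (mt-nd2, GW9662) to 0.58 (mt-rnr1, GW9662).

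Rosiglitazone embryos were compared with the same 4 DMSO libraries, which asked which transcripts differed with that compound. Here mt-co1 rose while parts of complex I and mt-atp6 fell, and the share of fragments held by the whole pool hardly moved. The values of mt-co1 were 7987, 7478, 7736 and 7775 FPKM, all above the highest DMSO value of 6686 (log2 change 0.27 ± 0.0628 (SE), a 1.21-fold rise, adjusted p = 0.0102). This call was lost when no filter on low genes was set (adjusted p = 0.0799), and under quantile normalization the change is 0 by construction because mt-co1 is the top gene of every library. The gene mt-cyb was also higher in all 4 libraries, at 2960 ± 110 FPKM, but did not pass (log2 change 0.18, adjusted p = 0.0566). It passed under the scaling to total assigned fragments, at 0.16 (adjusted p = 0.0241), with a filter of 5 FPKM (adjusted p = 0.0372), and without rosiglitazone replicate 2, at 0.21 (adjusted p = 0.03975). For mt-co2 the difference was -0.01, with a 95% interval from -0.16 to 0.15. The call of mt-co3, at -0.23 (adjusted p = 0.0380), rested on overlapping libraries. It was lost in 8 of 12 fits that left out a library (DMSO replicates 1, 2 and 4, GW9662 replicates 1 and 2 and rosiglitazone replicates 2, 3 and 4; highest adjusted p = 0.107).

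The falls with rosiglitazone were in the same direction as the GW9662 values for these genes, and are given side by side because the comparisons share their controls. The gene mt-atp6 fell to 3841, 3228, 3597 and 3650 FPKM, below every DMSO library (log2 change -0.41, adjusted p = 0.00180, against -0.47 with GW9662). Among complex I genes, mt-nd2 fell to 1451, 1278, 1387 and 1348 FPKM, again below every DMSO library, by a log2 of 0.32 (adjusted p = 0.00533). The genes mt-nd4 and mt-nd4l fell by 0.30 and 0.33 (adjusted p = 0.00423 and 0.00380), also without overlap. The other complex I genes did not pass: mt-nd1 was at -0.18, mt-nd3 at -0.24, mt-nd5 at -0.15 and mt-nd6 at -0.04. Under scaling to total assigned fragments mt-nd1, mt-nd3 and mt-nd5 passed (adjusted p = 0.01735, 0.0245 and 0.0457), and without rosiglitazone replicate 1 mt-nd1 and mt-nd3 did (adjusted p = 0.0366 and 0.00167). The rRNA gene mt-rnr1 rose to 134, 95.01, 108 and 108 FPKM, where the second library just met the DMSO range (log2 change 0.51, adjusted p = 0.0181), and the call was lost without DMSO replicate 3 (adjusted p = 0.0541). The rRNA gene mt-rnr2 stood at 298 ± 26.3 FPKM, with a log2 change of 0.03.

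With rosiglitazone 10 of the 34 tested genes changed, 2 higher and 8 lower, which comprised 1 mRNA higher and 5 lower, 1 rRNA higher and 3 tRNAs lower. Over all genes tested 17% were called, 9.29% higher and 7.68% lower, and among nuclear genes of at least 100 FPKM 24.7% were called, 15.6% higher and 9.2% lower. The share of mRNAs that fell was above both. Libraries did not overlap for 2 genes on the higher and 9 on the lower side, against 10.9% and 9.6% of all genes tested. The median of the mRNAs was -0.18, and that of all genes 0.00. Of the muscle markers 12 of 23 fell and 2 rose in this comparison (median -0.28), and their part in these changes was not tested.

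Tested against each other, at the unequal doses, the compound groups differed for 6 of the 34 genes, 5 lower and 1 higher in GW9662. Of all genes tested 30.5% were called, 16% higher and 14.5% lower, and among nuclear genes of at least 100 FPKM 37.5%, 17.6% higher and 19.9% lower. The share of members called was below both. Lower in GW9662 than in rosiglitazone were mt-nd1 (log2 difference -0.27, adjusted p = 0.00959), mt-nd2 (-0.26, adjusted p = 0.0118), mt-co2 (-0.27, adjusted p = 0.0135), mt-cyb (-0.20, adjusted p = 0.0241) and tRNA-Cys. The compound groups did not overlap for any of these 5. The call of mt-co2 was lost with no filter on low genes and under quantile normalization (adjusted p = 0.0602 and 0.07365). The latter scaling sets values by rank, which leaves a gene so near the top little room to change. The call of mt-cyb was lost in 4 fits without a library (GW9662 replicates 2 and 3, rosiglitazone replicates 3 and 4; highest adjusted p = 0.0794). The gene mt-atp8 was higher, at 0.31 (adjusted p = 0.0393), a call lost in 5 such fits (GW9662 replicates 1, 3 and 4, rosiglitazone replicates 2 and 3; highest adjusted p = 0.116). For mt-atp6 the difference was -0.06, with a 95% interval from -0.22 to 0.09, and for mt-nd4 -0.13, with an interval from -0.26 to 0.00. Under scaling to total assigned fragments mt-co1 (-0.17, adjusted p = 0.00419), mt-nd4 (-0.14, adjusted p = 0.0297) and mt-nd6 (-0.16, adjusted p = 0.0266) passed as lower too. Libraries did not overlap for 3 genes on the higher and 7 on the lower side, against 15.4% and 14% of all genes tested.

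The mRNAs did not all move alike, and their levels relative to each other differed between DMSO and each compound. The mRNAs leave the genome in shared precursors, so their relative levels were examined by dividing each library by its summed FPKM of the 13 mRNAs. By construction a rise of some members on this scale is balanced by falls of others. Of that sum, mt-co1 made up 19.3, 19.6, 19.7 and 19.6% in the DMSO libraries, 24.2, 24.6, 24.6 and 24.2% in the GW9662 libraries, and 23.8, 25.4, 24.7 and 24.8% in the rosiglitazone libraries. The DMSO values, with an SD of 0.177, all lay below both compound groups, which overlapped each other. In the fit on this scale the relative level of mt-co1 was higher by a log2 of 0.32 ± 0.0362 (SE) with GW9662 (adjusted p = 8.28e-06) and by 0.34 with rosiglitazone (adjusted p = 2.86e-05). The difference between the compounds was -0.02, with a 95% interval from -0.09 to 0.06.

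On the relative scale mt-cyb was higher by 0.19 with GW9662 (adjusted p = 7.24e-04) and by 0.25 with rosiglitazone (adjusted p = 3.45e-04). Lower with both compounds were mt-nd2 (-0.37 and -0.26), mt-atp6 (-0.27 and -0.34), mt-nd4 (-0.22 and -0.23) and mt-nd4l (-0.18 and -0.26). Complex I as a whole took 25.0 ± 0.139% of the mRNA fragments with DMSO, 21.0 ± 0.383% with GW9662 and 21.5 ± 0.256% with rosiglitazone, and the ATP synthase 10.23 ± 0.193%, 8.22 ± 0.107% and 7.75 ± 0.236%. Complex IV took 55.4 ± 0.235%, 60.5 ± 0.484% and 60.2 ± 0.337%, and complex III 9.34 ± 0.0712%, 10.24 ± 0.186% and 10.6 ± 0.230%. For each of these shares all 4 libraries of either compound lay on 1 side of DMSO. Of the complex IV genes only mt-co1 was called higher than DMSO on the relative scale. The calls of mt-co1, mt-cyb, mt-atp6, mt-nd2 and mt-nd4 against DMSO on this scale held in all fits that left out a library, and the call of mt-nd4l with GW9662 was lost in 4 (DMSO replicates 3 and 4, GW9662 replicates 2 and 4; highest adjusted p = 0.0775) and against the mean log2 level of the mRNAs in place of their sum (adjusted p = 0.0521).

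Some relative levels set the compounds apart. With GW9662 mt-nd1 was lower relative to the mRNA total (-0.24), whereas with rosiglitazone it did not pass (-0.11, adjusted p = 0.0546), and the difference between the compounds was -0.13 (adjusted p = 0.0144), a call lost without GW9662 replicate 2 (adjusted p = 0.0504). Without GW9662 replicate 1 the rosiglitazone value passed (adjusted p = 0.0287). With rosiglitazone mt-co3 was lower (-0.17, adjusted p = 0.00504), and with GW9662 it stood at 0.03, a difference of 0.20 (adjusted p = 6.63e-04). Against the mean log2 level of the mRNAs the rosiglitazone value was -0.09 and did not pass (adjusted p = 0.1185). The gene mt-atp8 was relatively higher with GW9662 (0.43, adjusted p = 0.00137) and at -0.02 with rosiglitazone. The rRNAs were relatively higher with GW9662, mt-rnr1 by 0.78 (adjusted p = 4.95e-05) and mt-rnr2 by 0.28 (adjusted p = 0.00286), and with rosiglitazone mt-rnr1 by 0.57 (adjusted p = 0.00221). In all, 7 of 34 genes were relatively higher and 8 lower with GW9662, and 3 and 8 with rosiglitazone. On the same scale 37.3% and 7.52% of all genes were higher and lower with GW9662, and 11.7% and 4.3% with rosiglitazone. Between the compounds 7 members were relatively higher and 4 lower in GW9662, against 27.3% and 7.5% of all genes. The summed mRNA FPKM itself differed from DMSO by a log2 of -0.21 with GW9662 and -0.07 with rosiglitazone. Dividing by a lower sum raises nuclear genes on this scale by construction, so these shares of all genes are not a neutral background for the members. Adjusted p-values on this scale were taken over the same genes, and so carry the same limit.

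**Figure D4:**
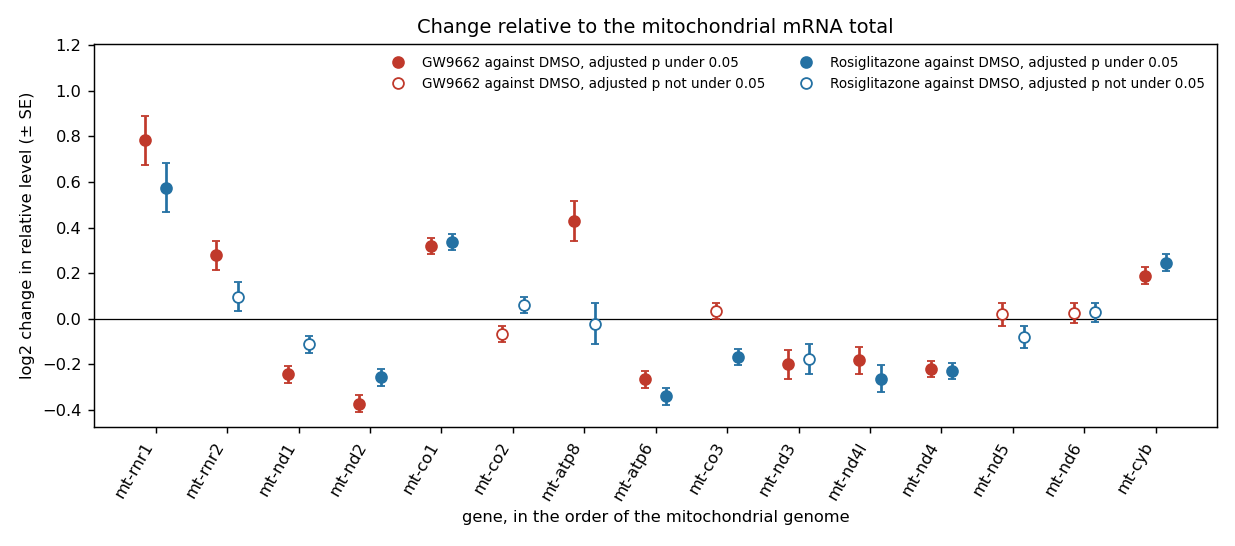
Log2 change against DMSO, with SE, of each mitochondrial mRNA and rRNA after every library was divided by its summed mitochondrial mRNA FPKM, with GW9662 (red) and rosiglitazone (blue); filled points passed an adjusted p of 0.05. The points for mt-co1 (0.32 and 0.34) and mt-cyb (0.19 and 0.25) lie above 0 and those for mt-nd2 (-0.37 and -0.26) and mt-atp6 (-0.27 and -0.34) below.

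Ratios between genes that share a precursor need no scaling of libraries, and several set DMSO apart from both compounds. The ratio of mt-co1 to mt-nd2 was 3.76 ± 0.0962 (SD, n = 4) with DMSO, 6.09 ± 0.253 with GW9662 and 5.68 ± 0.162 with rosiglitazone. No compound library came near the highest DMSO ratio of 3.87. Within complex IV, mt-co1 over mt-co2 was 1.17 ± 0.0178, 1.52 ± 0.0119 and 1.41 ± 0.0733, and mt-co1 over mt-co3 was 1.29 ± 0.0124, 1.57 ± 0.0285 and 1.83 ± 0.0881. For the first ratio GW9662 lay above rosiglitazone and for the second below it, without overlap in either. The ratio of mt-atp8 to mt-atp6 was 0.0295 ± 0.00441, 0.0476 ± 0.00458 and 0.0365 ± 0.00135, with no overlap between any pair of groups. By contrast, mt-nd4l over mt-nd4, which overlap by 7 bases too, stood at 0.608 ± 0.0314, 0.624 ± 0.0290 and 0.595 ± 0.0281, with all groups overlapping. How fragments that cover both genes of such a pair were counted was not given in the sources used here. For such pairs a difference in level and an effect of counting therefore cannot be told apart.

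The level of mt-nd6 against the other mRNAs did not separate the groups, whereas that of rRNA against mRNA separated GW9662 from DMSO. The balance between strands was not measured, since whether counting used the strand was not given in the sources used here. The level of mt-nd6 per 100 FPKM of the mean of the other mRNAs was 36.4 ± 0.872, 37.0 ± 1.40 and 37.1 ± 1.84, with overlap between all groups. For every 100 mRNA fragments there were 1.77 ± 0.0746 rRNA fragments with DMSO, 2.18 ± 0.169 with GW9662 and 1.91 ± 0.118 with rosiglitazone, with no overlap of GW9662 and DMSO. The ratio of mt-rnr1 to mt-rnr2 was 0.269 ± 0.0408, 0.380 ± 0.0364 and 0.375 ± 0.0563, above DMSO in every library of either compound. The mt-rnr1 gene rests on 811 to 2662 fragments per library, and the limit from the unknown RNA selection holds for these rRNA ratios too.

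The tRNA genes gave few fragments. They are short, with a median length of 70.5 bases, and the labels describe fragmentation and size selection of the libraries, so whether a fragment came from a mature tRNA or from uncut precursor RNA cannot be told apart. Of 22 genes 15 reached 1 FPKM in every library and 19 were tested. The 3 not tested were tRNA-Val, tRNA-Thr and tRNA-Pro, with 1, 0 and 3 fragments over all libraries. For tRNA-Thr, 0 fragments over all libraries allows a share of up to 1.42e-06%, counting error only. The most abundant was tRNA-Cys (ENSDARG00000082789, MT 6283 to 6354, minus strand), with 3725 fragments over all libraries, followed by tRNA-Leu1 (MT 3726 to 3802), which lies directly after mt-rnr2, with 1967.

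With GW9662 1 of 19 tested tRNAs rose and 3 fell. Over all genes tested 36% were called, 18.9% higher and 17.1% lower, so the share of tRNAs called was below that of all genes. The neighbours tRNA-Ser2 (MT 12750 to 12819) and tRNA-Leu2 (MT 12823 to 12895), between tRNA-His and mt-nd5, fell by a log2 of 1.67 (adjusted p = 0.00512) and 1.42 (adjusted p = 0.00137). The fragments of tRNA-Ser2 numbered 14, 14, 16 and 12 in DMSO, 3, 3, 8 and 5 in GW9662, and 1, 3, 6 and 9 in rosiglitazone, so both calls for this gene rest on few reads. In FPKM its DMSO libraries lay above all others. With rosiglitazone tRNA-Ser2 fell by 1.92 (adjusted p = 0.00494), while tRNA-Leu2 did not pass (-0.77, adjusted p = 0.0765) except without DMSO replicate 4 (adjusted p = 0.00113). The fragments of tRNA-Leu2 numbered 42, 34, 33 and 17 in DMSO, 11, 15, 12 and 10 in GW9662, and 20, 21, 18 and 20 in rosiglitazone, and in FPKM DMSO replicate 4 overlapped both compound groups. With GW9662 tRNA-Cys fell from 251 ± 28.4 to 180 ± 50.1 FPKM (log2 change -0.51, adjusted p = 0.0182), and tRNA-Lys, which lies between mt-co2 and mt-atp8, rose from 22.0 ± 7.56 to 42.2 ± 12 FPKM (0.94, adjusted p = 0.0238). Each of these calls was lost in 4 fits that left out a library (DMSO replicates 2 and 3 and GW9662 replicates 2 and 4 for tRNA-Cys, DMSO replicates 1 and 3 and GW9662 replicates 2 and 3 for tRNA-Lys; highest adjusted p = 0.0583 and 0.0720). Against rosiglitazone, where tRNA-Cys stood at 299 ± 29.0 FPKM, the GW9662 level was lower by 0.77 (adjusted p = 0.00193).

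With rosiglitazone tRNA-Leu1 fell from 134 ± 1.60 to 108 ± 11.5 FPKM (log2 change -0.32, adjusted p = 0.0247) and tRNA-Glu, next to mt-nd6 on the minus strand, from 28.2 ± 4.90 to 16.0 ± 4.25 FPKM (-0.82, adjusted p = 0.0178). No rosiglitazone library reached the DMSO range for either. The call of tRNA-Leu1 was lost in 6 fits that left out a library (each DMSO replicate and rosiglitazone replicates 2 and 3; highest adjusted p = 0.0683), and that of tRNA-Glu without DMSO replicate 4 (adjusted p = 0.0535). In all, 3 of the 19 tested tRNAs fell with rosiglitazone and none rose, where 17% of all genes tested were called, 7.68% lower. The log2 changes of the 19 tested tRNAs ran from -1.67 to 1.88 with GW9662 and from -1.92 to 1.31 with rosiglitazone.

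Some nuclear genes of the same complexes fell with GW9662 and none rose, while most of those tested did not pass. Of 34 tested nuclear complex I genes 15 fell and none rose (44.1% called, against 36% of all genes, median log2 change -0.22, against -0.41 for the 7 mitochondrial genes). Examples were the accessory subunits ndufb10 (-0.41), ndufa10 (-0.33) and ndufb6 (-0.32). In complex III 4 of 9 fell (median -0.22), among them uqcrc1 at -0.47, while the mitochondrial mt-cyb stood at -0.02. In complex IV 5 of 14 fell (median -0.20), with cox6b1 at -1.43, cox5b2 at -0.84 and cox7a2a at -0.42, although cox5b2 had under 2 FPKM in the mean of each group. In the ATP synthase 8 of 18 fell (median -0.21), with the rotor ring genes atp5mc3a and atp5mc1 at -0.45 and -0.41 and the catalytic head gene atp5fa1 at -0.34. Called were 44.4% of the tested genes in complex III, 35.7% in complex IV and 44.4% in the ATP synthase. All of these calls were lower, as in complex I. Over all genes tested 36% were called in either direction and 17.1% lower, so each set lay above the share called lower. With rosiglitazone 1 gene fell in each of the 4 nuclear sets and none rose, with medians of -0.14, -0.06, -0.07 and -0.15 in the same order. Of all genes tested 17% were called with rosiglitazone, 7.68% lower. The plot of subunit genes sets both genomes side by side.

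**Figure D5:**
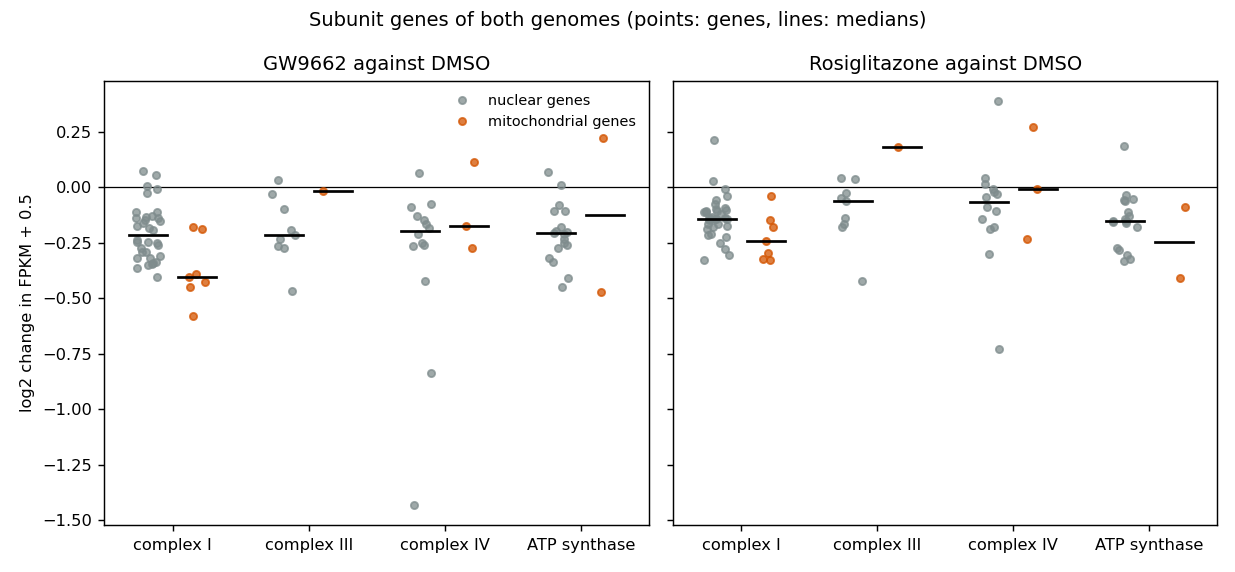
Log2 change in FPKM + 0.5 against DMSO of nuclear (grey) and mitochondrial (orange) subunit genes, by complex, for GW9662 (left) and rosiglitazone (right); points are genes and lines medians. With GW9662 the median of the mitochondrial complex I genes is -0.41 and that of the nuclear ones -0.22.

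Few genes that maintain and express the mitochondrial genome passed. Of 14 tested mtDNA maintenance genes 1 rose and 2 fell with GW9662, among them tfam, the packaging factor of mtDNA, which fell from 46.8 ± 2.88 to 39.9 ± 2.94 FPKM (log2 change -0.23, adjusted p = 0.0151). The ribonucleotide reductase subunit gene rrm2b rose by 0.54 and the DNA ligase gene lig3 fell by 0.21. In rosiglitazone tfam stood at 52.6 ± 3.65 FPKM (0.17, adjusted p = 0.108) and no gene of this list passed, and the difference between the compounds was -0.39 (adjusted p = 5.47e-04). Of 8 mtDNA transcription genes, a list that holds tfam too, 1 rose (mterf3, 0.26) and 1 fell (tfam) with GW9662, and none passed with rosiglitazone. The mitochondrial RNA polymerase gene polrmt, picked after its values were seen, stood at 5.07 ± 0.486, 4.63 ± 0.100 and 4.80 ± 0.565 FPKM and did not pass with either compound (adjusted p = 0.328 and 0.633).

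Of 27 RNA processing and stability genes 3 rose and 3 fell with GW9662, and 1 fell with rosiglitazone. The subunit gene of mitochondrial RNase P hsd17b10 fell with both, by 0.47 (adjusted p = 0.0141) and by 0.42 (adjusted p = 0.0433). The RNA stability gene fastkd3 and the tRNA modification gene mto1 fell with GW9662, by 0.36 and 0.23. Of 13 translation factors 1 rose (mtfmt, 0.28) and 1 fell (mtif3, by 0.26) with GW9662, and with rosiglitazone guf1 fell by 0.25. Mitochondrial ribosomal protein genes were lower with GW9662 for 16 of 68 tested and higher for 1 (median -0.13), with mrpl16 at -0.41, mrps10 at -0.32 and mrpl20 at -0.30. With rosiglitazone 1 of 68 was lower, mrps10 at -0.21. The share of these lists called in either direction with GW9662 ran from 15.4% for translation factors to 25% for transcription genes and ribosomal proteins. It was below the 36% of all genes tested. For the ribosomal protein genes all calls but 1 were lower, and 17.1% of all genes tested were called lower.

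Of 14 mitochondrial chaperone and protease genes 5 rose and 1 fell with GW9662, so that 42.9% were called against 36% of all genes. Their median log2 change was 0.08 with GW9662 and 0.02 with rosiglitazone. The summed FPKM of the 15 measured genes, on which abundant genes weigh most, ran from 376 to 393 in DMSO, 628 to 671 in GW9662 and 400 to 464 in rosiglitazone. The matrix protease gene lonp1, whose product also degrades Tfam in mammals, rose from 13.01 ± 0.374 to 29.9 ± 0.747 FPKM (log2 change 1.17, adjusted p = 3.89e-09), and did not pass with rosiglitazone (14.7 ± 1.14 FPKM, adjusted p = 0.0532). The matrix chaperonin genes hspd1 and hspe1 rose by 1.12 and 0.64, and with rosiglitazone hspd1 rose by 0.27 (adjusted p = 0.00555). Of 8 biogenesis regulators 4 rose and 2 fell with GW9662, and 2 rose and 1 fell with rosiglitazone, or 75% and 37.5% called against 36% and 17% of all genes. The coactivator genes pprc1 and ppargc1b, relatives of PGC-1α in mammals, rose with GW9662 by 0.69 and 0.48 and with rosiglitazone by 0.44 and 0.42 (adjusted p = 5.05e-05 and 0.00388). The muscle regulator perm1b, listed as si:ch211-157b11.14, fell by 0.78 with GW9662.

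Markers of other cell types were measured as well, and their counts stand against 36% of all genes called with GW9662 and 17% with rosiglitazone. Of 9 neuron markers 6 fell with GW9662 and 2 with rosiglitazone (66.7% and 22.2% called, medians -0.28 and -0.20). Their summed FPKM ran from 482 to 506 in DMSO, 355 to 382 in GW9662 and 384 to 427 in rosiglitazone. Of 8 heart muscle markers 2 rose and 2 fell with GW9662, and 2 rose with rosiglitazone (50% and 25% called), and their summed FPKM ran from 706 to 800, 481 to 627 and 652 to 783. Of 4 tested ionocyte markers, which mark ion-transporting skin cells rich in mitochondria, 1 rose and 1 fell with GW9662 and 2 rose with rosiglitazone (50% called in each), and their summed FPKM ran from 65.2 to 68.5, 65.3 to 70.7 and 73.8 to 80.6. Of 8 erythroid markers 1 fell with GW9662, and with rosiglitazone 1 rose and 1 fell (12.5% and 25% called). Their part in the mitochondrial values was not tested.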

How the data were processed

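The deposited table gives FPKM per gene and library, which the authors computed. Per the submitters' processing notes the tools were HISAT2 2.0.5 and featureCounts 1.5.0-p3. The genome build and the strand setting were not given in the sources used here. Reads shared with nuclear copies of mitochondrial DNA are uncertain. The deposited FPKM multiplied by the listed gene length came out as whole steps of 1 fragment in 100% of cases (tolerance 0.001), which gave each library's fragments. The library size that the FPKM imply was 0.957 to 1.04 of their sum. Of the value columns, 0 had no sample.

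Testing on log2(FPKM + 0.5) covered 14433 genes, those that reached 1 FPKM in 4 or more libraries, so folds of low genes are understated. All 12 libraries entered 1 model in limma 3.58.1 (R 4.3.3, eBayes with trend), two-sided, with p-values adjusted by the Benjamini-Hochberg method over all genes within each contrast, at a threshold of 0.05. A second fit used libraries divided by their summed mitochondrial mRNA FPKM. Errors are the SD of 4 libraries or the SE of the model, and intervals are 95% of the model. The floor of 3 counts for a gene with no fragments covers counting error only. Shares and ratios have no test. The code of the fits was run on simulated data, which is no test of the calls given here. Tables and figures used Python 3.11.15, pandas 2.3.3 and matplotlib 3.10.9.

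The members were fixed by chromosome, but this set and the gene lists were taken up with earlier results of these data known. Of 329 symbols in 16 lists 315 were matched. All mRNAs and rRNAs were named, tRNAs by their adjusted p (up to 4 per comparison with DMSO) or as the 2 with most fragments, and up to 3 genes per list by adjusted p. Residuals of libraries with equal replicate numbers correlated by -0.0502 to 0.228, which gave no basis for pairing. No libraries of the same group were duplicates, since the mean squared difference of their counts was 2.96 to 13.6 times the variance from counting alone. Pairs across groups were not checked for duplicates. Alternatives were other pseudocounts, filters and scalings, a fit on 2 groups, a replicate block and leaving out each library.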

Additional observations from a re-analysis of the deposited data

Results flagged for a closer look

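In 11 of 147 sets of 4 libraries, a library stood apart from the other 3 by more than Dixon's 95% critical value for the gap over the range, where chance alone gives about 1 in 20. GW9662 replicate 1 had the largest mitochondrial share of its group: 6.59% of FPKM for all members where the others ran from 6.02 to 6.07%, 6.33% for the protein coding members, and 6.44% of protein coding FPKM. Rosiglitazone replicate 3 did likewise, at 7.06% where the others ran from 6.77 to 6.79%, 6.80% and 6.92%. These shares hold the same fragments and are not independent of each other.

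Among single genes, mt-cyb in rosiglitazone replicate 2 stood at 2795 FPKM, below the 3006 to 3028 FPKM of the others, and mt-nd4l in rosiglitazone replicate 3 stood at 614 FPKM, above 579 to 585. For tRNA-Leu1, GW9662 replicate 3 was low at 99.8 FPKM against 127 to 130. DMSO replicate 1 had 55.1% of its mitochondrial mRNA fragments in complex IV genes where the others had 55.5 to 55.6%. The ATP synthase genes took 0.232% of fragments in rosiglitazone replicate 2 against 0.252 to 0.254% in the others. The reasons were not tested.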

How the results depend on the processing

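Among the mitochondrial mRNAs, the rRNAs and the tRNAs called in FPKM against DMSO, no called value changed sign under any alternative. Single nuclear genes and the other tRNAs were not followed under the alternatives. Against DMSO, the numbers of members called kept within 1.5 times of those reported under the other pseudocounts, filters and scalings, except that 1 rather than 2 genes were higher with rosiglitazone with no filter and under quantile normalization, where mt-co1 was lost. Between the compounds, higher calls numbered 0 with no filter, 3 with a filter of 5 FPKM, 3 under quantile normalization, 2 in a fit on the 2 groups and 2 with limma-voom on recovered fragments, an alternative chosen after seeing the data. Lower calls numbered 3 with no filter, 8 with total assigned fragments and 8 with the total of nuclear fragments. With a replicate block there were 2 higher calls between the compounds; equal numbers did not match best for every replicate, and the other counts stayed within 1.5 times. Under the block mt-co3 and mt-nd6 passed as lower with GW9662 (adjusted p = 0.0468 and 0.0178) and mt-cyb as higher with rosiglitazone (adjusted p = 0.0448), as all of them did with limma-voom. The rosiglitazone share differed from DMSO by -0.0762 (log2) as a share of FPKM. The scalings moved the median of all genes by less than 0.04, but the balance of calls moved with them. With GW9662, 2461 of all genes were called lower in the reported fit. The number was 3001 under quantile normalization, 2976 with total assigned fragments and 3034 with the total of nuclear fragments. With rosiglitazone these numbers were 1109, 1399, 1391 and 1400. The shares of all genes called lower therefore depend on the scaling.

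Leaving out a library gave 1 to 4 members higher and 10 to 14 lower with GW9662 (4502 to 5583 genes called in all, share difference -0.21 to -0.15), and 1 to 3 and 6 to 10 with rosiglitazone (1837 to 2494 genes, -0.04 to 0.00). Between the compounds it gave 0 to 3 and 4 to 6 (3736 to 4359 genes, -0.18 to -0.14). Relative to the mRNA total the ranges were 7 to 9 and 6 to 9 with GW9662, 3 to 3 and 6 to 9 with rosiglitazone, and 4 to 8 and 3 to 5 between the compounds. Higher calls with GW9662 numbered 1 without DMSO replicate 1 or 3 or GW9662 replicate 2 or 3, and 4 without DMSO replicate 4. The causes were not tested. Count models with edgeR or DESeq2 were not run, since the deposited values are FPKM. Counting depth limits mt-atp8 and the tRNAs.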
